A study of Mus musculus with 12 samples.

Results

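Osmr, Il4ra, Tnfrsf1b and Il1r2 encode cytokine receptors and Csf1 encodes a cytokine of macrophages, and their signal was followed in mouse skin after a thermal injury. The members are the probe sets, the units an Affymetrix array measures, that name exactly 1 of these 5 genes in the platform's annotation, and there were 6 of them among 7275 on the array, with 2 for Il1r2 (161689_f_at and 102658_at) and 1 each for Osmr (102255_at), Il4ra (102021_at), Tnfrsf1b (94928_at) and Csf1 (101450_at). All 6 passed the filter on dim signal (above 475.55, the median of all values, on 3 or more arrays), as did 3477 of the 5599 genes with a probe set of their own. The labels give skin as the tissue and describe 12 samples of total RNA, with 3 samples for every one of the time points 0 hours, 2 hours, 3 days and 14 days. They name no strain, sex, age, burn depth or body site, do not say whether the 0 hours skin had been burnt, and do not say whether replicates came from separate animals, so each p-value reflects no more than how these samples vary, and that variation may be technical. Values are deposited signal intensity in arbitrary units, and their precision is limited by having 3 arrays per time point.

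Cytokine receptors set which cells answer a signal from damaged or infiltrating tissue. OSMR, the oncostatin M receptor, pairs with the shared chain gp130 (Il6st) and signals through JAK kinases and STAT3, and keratinocytes and fibroblasts carry it in skin. IL-4 receptor alpha (Il4ra) is common to the receptors of IL-4 and IL-13, acts through STAT6 and is known for its part in the repair programme of macrophages. Tnfrsf1b encodes TNF receptor 2, which lacks the death domain of TNF receptor 1 and is found mostly on leukocytes and endothelium. Il1r2 encodes a decoy that binds IL-1 without passing a signal on, and Csf1, the macrophage colony-stimulating factor, supports monocytes and macrophages through its receptor Csf1r.

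Osmr was higher at 2 hours and 3 days than at 0 hours, Il4ra and Tnfrsf1b were highest at 3 days, the brighter Il1r2 probe set was lowest at 14 days, and Csf1 at 14 days was below its level at 2 hours and at 3 days. All 5, with Il1r2 taken from its brighter probe set, differed over the 4 time points by the limma F-test. Benjamini-Hochberg adjusted p was 8.9e-04 for Osmr, 0.0019 for Il4ra, 0.0054 for Tnfrsf1b, 0.0026 for Il1r2 and 0.0083 for Csf1. The dimmer Il1r2 probe set had an F-test adjusted p of 0.45 in a fit of every probe set. The same test called 21.1% of all genes tested, and since the genes were picked with such results known, their count is not set against that share. Where SD is not named, ± gives the standard error from limma, changes are on the log2 scale, and a gene is called at an adjusted p under 0.05 over all 3477 genes. The comparisons with 0 hours share the same 3 arrays. Arrays that do not overlap were common among all genes tested. At 2 hours, 3 days and 14 days, 13.6%, 16.6% and 17.4% were higher than at 0 hours without overlap. Those lower were 9.81%, 12.1% and 11.7%. The higher and lower shares were 16.7% and 18.5% for 3 days against 2 hours. They were 10.7% and 9% for 14 days against 3 days, and 19.7% and 20% for 14 days against 2 hours.

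**Figure D1:**
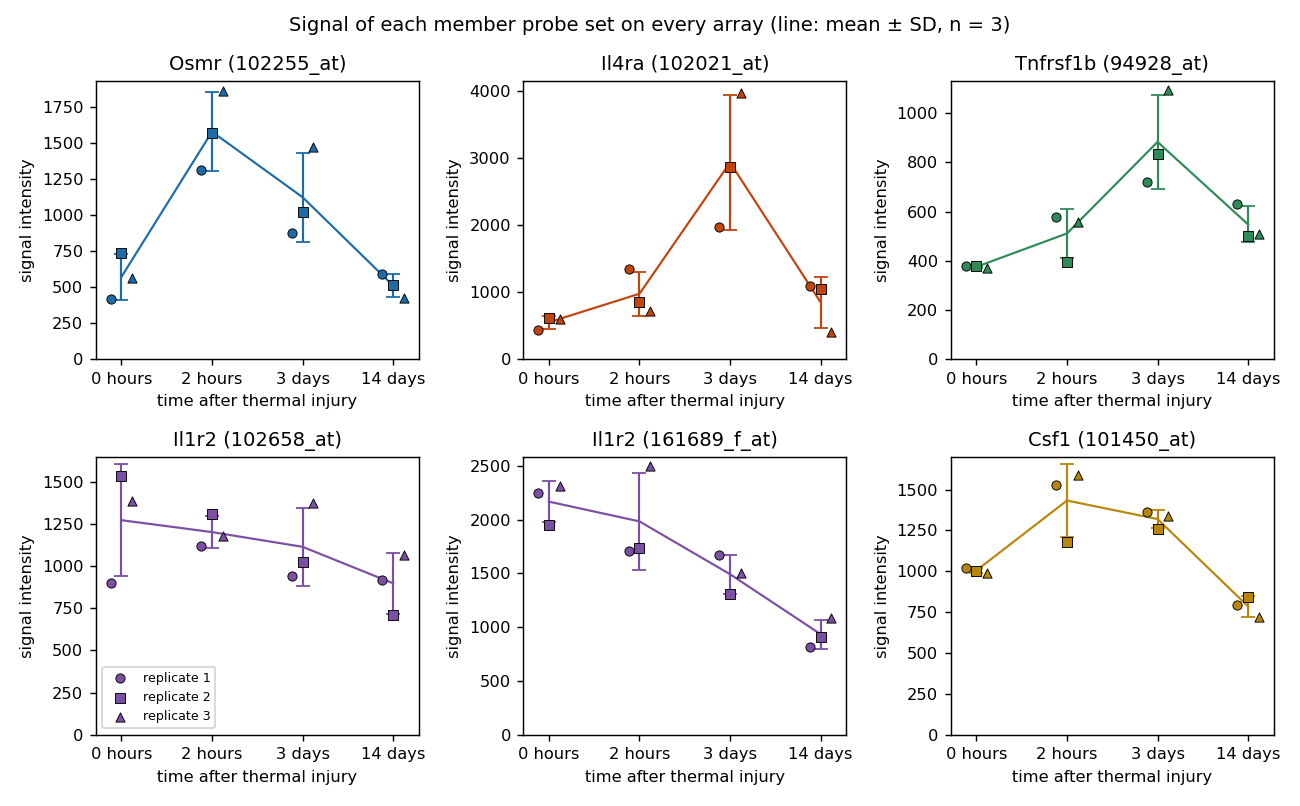
Signal intensity (arbitrary units, axis from 0) of the 6 member probe sets on all 12 arrays, by time after injury, with symbols for replicates and lines with bars for the mean and SD of 3 arrays. Il4ra on the 3 arrays at 3 days lies between 1968.6 and 3977.9, above each of its other arrays, and the brighter Il1r2 probe set at 14 days lies between 812 and 1081.4, below each of its other arrays.

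Some features of the whole set of arrays bear on these values. Arrays of 1 time point correlated with Spearman coefficients of 0.875 to 0.960 and arrays of different time points with 0.802 to 0.940, and array medians lay between 448.4 and 496.4. Keratinocyte markers (16 of 20 listed had a probe set) had a mean log2 signal of 11.02, 11.24, 11.20 and 11.64 and fibroblast markers (17 of 18) of 11.82, 11.62, 11.89 and 12.23 from the first time point to the last, and the keratinocyte gene Dsc3 lay at the floor set for dim signal (225.375) at 0 hours, 2 hours and 3 days. Skeletal muscle markers (21 of 26) were also bright, with means of 12.97, 12.36, 11.89 and 12.12 in the same order. They were lower on each array at 2 hours (12.29 to 12.44), 3 days (11.35 to 12.25) and 14 days (11.88 to 12.33) than on each 0 hours array (12.57 to 13.57). The part of muscle markers in the results was not tested. Endothelial markers (10 of 16) averaged between 8.53 and 8.71. The log2 ratio of the 3′ to the 5′ Gapdh control probe set, a measure of RNA integrity, averaged 1.99 ± 0.29 in the 0 hours samples, 1.54 ± 0.46 in the 2 hours samples, 0.52 ± 0.50 in the 3 days samples and 0.21 ± 0.08 in the 14 days samples (SD, n = 3 each). For beta-actin the same ratio averaged 0.01, 0.74, 0.23 and 0.35 in that order, while its ratio of the 3′ to the middle probe set averaged 2.77, 1.99, 1.19 and 1.07. The part of RNA integrity in the results on the 5 genes was not tested.

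Osmr had the largest rise of the 5 genes at 2 hours. Its signal was 418, 734 and 559.1 at 0 hours, 1308.5, 1564.8 and 1855.9 at 2 hours, 875, 1022.5 and 1470 at 3 days, and 591.3, 510.5 and 426.6 at 14 days. Every array at 2 hours and at 3 days was above every array at 0 hours and at 14 days, while 2 hours overlapped 3 days and 14 days overlapped 0 hours. At 2 hours it averaged 1576 ± 274 against 570 ± 158 at 0 hours (SD, n = 3 each), and it rose 2.81-fold (1.49 ± 0.25, limma adjusted p = 0.0029), the 35th highest of 3477 changes in that comparison. The call remained in each of 21 alternative settings, with changes of 1.28 to 1.69. Among the 5 genes it was the only 1 called at 2 hours, where limma called 3.97% of all genes tested higher and 1.67% lower. Mast cell markers were higher at 2 hours too (mean log2 signal 9.51, against 8.93 at 0 hours). Their genes Hdc and Kit exceeded the floor on no 0 hours array, and the part of these markers was not tested.

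At 3 days Osmr averaged 1123 ± 310 (SD, n = 3), and its rise against 0 hours was 1.97-fold (0.98 ± 0.25, limma adjusted p = 0.019). That call was lost without 0 hours replicate 1 (adjusted p = 0.076), without 3 days replicate 3 (0.107), without the filter on dim probe sets (0.066) and in a fit of these 2 time points alone (0.070). The step from 2 hours to 3 days was −0.51 ± 0.25 with a 95% interval of −1.05 to 0.02, and it was not called (limma adjusted p = 0.22). At 14 days the signal averaged 509 ± 82 (SD, n = 3) and had fallen by 1.63 ± 0.25 against 2 hours (limma adjusted p = 9.4e-04). The change of 14 days against 0 hours was −0.14 with an interval of −0.67 to 0.40, and its sign turned to 0.06 without 0 hours replicate 2. In order of mean signal, 2 hours and 3 days stood above 0 hours and 14 days, and no difference within either pair was called.

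The RefSeq promoter windows (build GRCm38.p6, from 250 bases before to 50 bases after the start site) of the 3 receptors that rose at 3 days are shown, and that of Csf1 because it held the most motif matches of the 5 genes. Each is read along the gene's own strand, and capitals mark matches to 5 motifs searched on both strands, with N for any base: NF-kB GGGANNNNCC, AP-1 TGANTCA, STAT TTCNNNGAA, STAT6 TTCNNNNGAA and a heat shock element pair GAANNTTC.
Osmr, chr15:6874264-6874563, minus strand: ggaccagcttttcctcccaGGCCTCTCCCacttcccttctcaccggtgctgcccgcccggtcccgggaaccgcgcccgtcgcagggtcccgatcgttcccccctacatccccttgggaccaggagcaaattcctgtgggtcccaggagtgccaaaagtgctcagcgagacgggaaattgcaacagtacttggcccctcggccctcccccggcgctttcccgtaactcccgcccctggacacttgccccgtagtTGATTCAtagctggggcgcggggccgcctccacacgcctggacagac
Il4ra, chr7:125552021-125552320, plus strand: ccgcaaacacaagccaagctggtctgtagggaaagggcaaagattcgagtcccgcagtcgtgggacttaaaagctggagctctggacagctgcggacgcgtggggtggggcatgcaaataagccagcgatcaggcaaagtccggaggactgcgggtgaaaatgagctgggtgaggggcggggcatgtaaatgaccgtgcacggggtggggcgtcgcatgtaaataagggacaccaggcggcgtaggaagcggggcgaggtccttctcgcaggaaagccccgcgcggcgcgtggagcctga
Tnfrsf1b, chr4:145246821-145247120, minus strand: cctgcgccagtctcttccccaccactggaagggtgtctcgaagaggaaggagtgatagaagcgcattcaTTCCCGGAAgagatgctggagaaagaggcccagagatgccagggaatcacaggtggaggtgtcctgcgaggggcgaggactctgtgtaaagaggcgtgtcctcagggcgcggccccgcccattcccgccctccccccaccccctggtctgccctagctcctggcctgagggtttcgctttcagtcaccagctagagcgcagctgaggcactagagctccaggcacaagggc
Csf1, chr3:107760420-107760719, minus strand: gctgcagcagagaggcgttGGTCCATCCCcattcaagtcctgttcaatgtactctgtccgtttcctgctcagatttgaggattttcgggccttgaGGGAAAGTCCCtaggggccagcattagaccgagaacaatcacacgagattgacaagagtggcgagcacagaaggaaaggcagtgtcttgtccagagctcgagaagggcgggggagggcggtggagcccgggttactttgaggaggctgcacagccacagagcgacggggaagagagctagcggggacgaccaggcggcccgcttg
The Osmr window held an AP-1 match, TGATTCA, from 3 bases after the start site, and 1 NF-kB match on the other strand that starts 231 bases before it. The Tnfrsf1b window held a STAT match, TTCCCGGAA, 181 bases before the start site, and that of Il1r2, whose window is not printed, held the STAT match TTCAAGGAA 111 bases before it. The Osmr and Il1r2 windows lie wholly inside the annotated genes (chr15:6813568-6874968 and chr1:40084692-40125230). Their start sites are thus not the outermost start of the gene. Csf1 had 3 NF-kB matches, of which 2 are the same stretch read on both strands with a shift of 1 base, and Il4ra had no match to any of the 5. Of 32851 mouse promoter windows of the same length, 20.73% held the NF-kB motif, 7.81% the AP-1 motif, 8.3% the STAT motif, 6.95% the STAT6 motif and 7.86% the heat shock pair. A match describes letters, not binding.

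Il4ra changed more than any other of the 5 genes at 3 days. Its signal was 441.8, 607 and 602.7 at 0 hours, 1346.8, 860.3 and 724.7 at 2 hours, 1968.6, 2864.2 and 3977.9 at 3 days, and 1097.8, 1040.2 and 411.6 at 14 days. The 3 days arrays lay above all others, the 2 hours arrays lay above those of 0 hours, and the 14 days arrays spread from below the lowest 0 hours array into the 2 hours range. At 3 days it averaged 2937 ± 1007 against 551 ± 94 at 0 hours (SD, n = 3 each), a rise of 5.18-fold (2.37 ± 0.36, limma adjusted p = 6.8e-04), the 24th highest of 3477. The call remained in each of 21 alternative settings, with changes of 2.12 to 2.63.

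From 2 hours to 3 days Il4ra rose 2.99-fold (1.58 ± 0.36, limma adjusted p = 0.014). That call was lost without the filter on dim probe sets (adjusted p = 0.084) and without 2 hours replicate 2 (0.059), 2 hours replicate 3 (0.077), 3 days replicate 2 (0.051) or 3 days replicate 3 (0.078). From 3 days to 14 days it fell by 1.86 ± 0.36 (limma adjusted p = 0.0086, and 0.084 without the filter). The change at 2 hours against 0 hours was 0.79 ± 0.36 and was not called (limma adjusted p = 0.21). The arrays did not overlap, and 13.6% of all genes tested were likewise higher at 2 hours without overlap. At 14 days the change against 0 hours was 0.51 with an interval of −0.26 to 1.28 and was not called. It moved to 0.97 without 14 days replicate 3, the array with the low value, to 0.26 without 14 days replicate 1 and to 0.30 without 14 days replicate 2. Against 2 hours the 14 days change was −0.28, or 0.18 without 14 days replicate 3 and −0.53 without 14 days replicate 1. In order of mean signal the time points ran 3 days, 2 hours, 14 days and 0 hours, and only 3 days differed from its neighbour in the test.

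Tnfrsf1b was also highest at 3 days, with smaller changes. Its signal was 376.8, 378.8 and 370.5 at 0 hours, 579.5, 396.4 and 557.6 at 2 hours, 720.4, 835.3 and 1095.1 at 3 days, and 632.1, 502.2 and 509.3 at 14 days. The 0 hours arrays were the lowest and the 3 days arrays the highest, without overlap with any other time point, and those of 2 hours and 14 days overlapped. At 3 days it averaged 884 ± 192 against 375 ± 4.3 at 0 hours (SD, n = 3 each), and it rose 2.32-fold (1.21 ± 0.21, limma adjusted p = 0.0017), a call that remained in each of 21 alternative settings. Of the 5 genes 3 were called higher at 3 days than at 0 hours (Osmr, Il4ra and Tnfrsf1b) and none lower. Over all genes tested, limma called 8.89% higher and 4.4% lower.

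Between 2 hours and 3 days Tnfrsf1b rose 1.73-fold (0.79 ± 0.21, limma adjusted p = 0.029), so that 2 of the 5 genes, with Il4ra, were called higher in that step, where 6.1% of genes were called higher and 3.31% lower. The call of Tnfrsf1b was lost without the filter on dim probe sets (adjusted p = 0.058), with these 2 time points alone (0.065), and without 2 hours replicate 2 (0.133), 2 hours replicate 3 (0.064), 3 days replicate 2 (0.079) or 3 days replicate 3 (0.163). The changes of 0.43 ± 0.21 at 2 hours and 0.54 ± 0.21 at 14 days against 0 hours were not called (limma adjusted p = 0.25 and 0.11), nor was that of −0.68 ± 0.21 from 3 to 14 days (0.11). Their intervals were −0.02 to 0.87, 0.09 to 0.98 and −1.12 to −0.23. The time points ran 3 days, 14 days, 2 hours and 0 hours, with 14 days and 2 hours apart by 0.11 (interval −0.33 to 0.56), and no step between neighbours in that order was called.

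Macrophage, neutrophil and mast cell markers were also highest at 3 days. The mean log2 signal of 21 monocyte and macrophage markers (of 24 listed) was 9.43 on average at 0 hours (arrays 9.31 to 9.51), 9.42 at 2 hours (9.16 to 9.82), 10.92 at 3 days (10.64 to 11.25) and 9.83 at 14 days (9.79 to 9.88). That of 8 neutrophil markers (of 20) was 7.94 (7.84 to 8.09), 8.25 (7.93 to 8.55), 9.88 (9.05 to 10.60) and 8.66 (8.35 to 9.22) at the same time points. The macrophage genes Itgam and Msr1 and the neutrophil genes Csf3r, Cxcr2, Lcn2 and Clec4d did not exceed the floor on any array at 0 hours, 2 hours or 14 days, and the macrophage gene Fcgr3 exceeded it on no array from 2 hours on. The mean of 5 mast cell markers (of 12) was 8.93 (8.89 to 8.99), 9.51 (9.38 to 9.59), 9.86 (9.80 to 9.97) and 9.07 (9.02 to 9.17) in the same order, so that their 2 hours and 3 days arrays all lay above those of 0 hours. The mast cell gene Kit exceeded the floor on no array up to 3 days. Hdc, another of the 5, exceeded it on no array at 0 hours or 14 days, but did at 2 hours and at 3 days. How much of the mean's rise came from Hdc was not tested. Only 2 T cell markers of 16 had a probe set, with means of 9.88 at 3 days and 9.53 at 0 hours, and Il7r exceeded the floor on no array from 2 hours on. In whole skin, a change in the number of cells of a type and in RNA per cell cannot be told apart, and the part of these cells in the receptor signal was not tested.

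**Figure D2:**
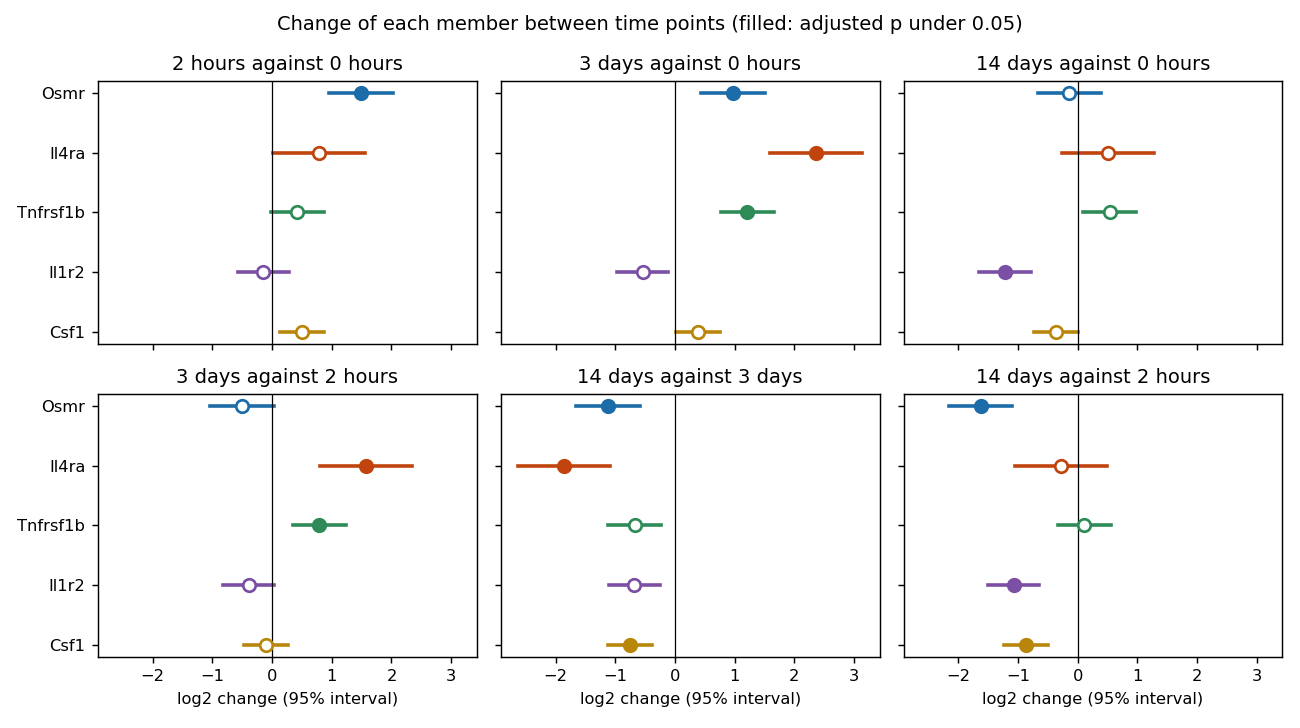
Log2 change of the 5 genes in 6 comparisons, with the 95% interval of the limma fit on all 12 arrays, and filled points at an adjusted p under 0.05. Osmr is filled at 2 hours and 3 days against 0 hours, Il4ra and Tnfrsf1b at 3 days, and Osmr, Il1r2 and Csf1 lie left of 0 and filled for 14 days against 2 hours. Il1r2 is shown by its brighter probe set.

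Il1r2 was lower late after the injury by its brighter probe set, and its 2 probe sets differed. The brighter one, 161689_f_at, gave 2246.9, 1946.1 and 2307.8 at 0 hours, 1710.2, 1740.4 and 2499.3 at 2 hours, 1668.9, 1307.5 and 1500.3 at 3 days, and 812, 912.4 and 1081.4 at 14 days. The 14 days arrays were below all others and those of 3 days below those of 0 hours and 2 hours, which overlapped. At 14 days it averaged 935 ± 136 against 2167 ± 194 at 0 hours (SD, n = 3 each) and fell by 1.22 ± 0.20 (limma adjusted p = 0.0024), which is 2.33-fold. Against 2 hours it fell by 1.07 ± 0.20 (limma adjusted p = 0.0040). The steps of −0.54 ± 0.20 at 3 days against 0 hours and −0.68 ± 0.20 at 14 days against 3 days were not called (limma adjusted p = 0.086 and 0.097). In order of mean signal the time points ran 0 hours, 2 hours, 3 days and 14 days, and no step between neighbours was called.

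The dimmer Il1r2 probe set, 102658_at, gave 899.4, 1534 and 1383.6 at 0 hours, 1120.9, 1308.6 and 1175.8 at 2 hours, 944.3, 1022.5 and 1376.5 at 3 days, and 915.8, 710.7 and 1068.3 at 14 days. The time points overlapped, except that 14 days lay below 2 hours. Used in place of the brighter one, it changed by −0.49 ± 0.24 at 14 days against 0 hours and by −0.44 ± 0.24 against 2 hours, and neither was called (limma adjusted p = 0.19 and 0.25). In a fit of every probe set its F-test adjusted p was 0.45, against 0.015 for the brighter one. The suffix _f in the brighter probe set's name marks probes shared by a family of sequences, the annotation gives no source accession for it, and the call at 14 days rests on this probe set alone. Of the 5 genes, the brighter Il1r2 probe set was the only 1 called at 14 days against 0 hours, and it fell, where limma called 6.9% of genes higher and 3.22% lower. With the dimmer probe set none of the 5 was called there.

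Csf1, the ligand of the set, had small changes with little spread. Its signal was 1023.2, 1000.7 and 992.5 at 0 hours, 1526.8, 1180.5 and 1592.5 at 2 hours, 1363.3, 1261.3 and 1335.7 at 3 days, and 792.5, 843.7 and 720.3 at 14 days. All arrays at 2 hours and 3 days were above those at 0 hours, and all at 14 days were below those at 0 hours. At 14 days it averaged 786 ± 62 against 1433 ± 221 at 2 hours (SD, n = 3 each) and fell by 0.86 ± 0.17 (limma adjusted p = 0.0062), a call that remained in each of 21 alternative settings. Osmr, Csf1 and the brighter Il1r2 probe set were thus called lower at 14 days than at 2 hours and none of the 5 higher. Over all genes tested, 5.38% were called lower and 6.84% higher.

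Against 3 days, Csf1 at 14 days fell by 0.75 ± 0.17 (limma adjusted p = 0.026), beside Osmr (fell by 1.12 ± 0.25, adjusted p = 0.022) and Il4ra, so that 3 of the 5 genes were called lower where limma called 2.1% of genes lower and 1.29% higher. The call of Csf1 was lost without any 1 of the 6 arrays of these time points, with adjusted p from 0.068 to 0.119. That of Osmr was lost without 3 days replicate 2 (0.060) or 3 (0.111) or 14 days replicate 2 (0.085) or 3 (0.11), and without the filter (0.087). The differences of Csf1 from 0 hours were 0.50 ± 0.17 at 2 hours, 0.39 ± 0.17 at 3 days and −0.36 ± 0.17 at 14 days, and none was called (limma adjusted p = 0.10, 0.14 and 0.19), with intervals of 0.13 to 0.87, 0.02 to 0.76 and −0.73 to 0.01. Without the filter the 2 hours change of Csf1 was called (adjusted p = 0.049). In order of mean signal the time points ran 2 hours, 3 days, 0 hours and 14 days, and no step between neighbours was called.

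**Figure D3:**
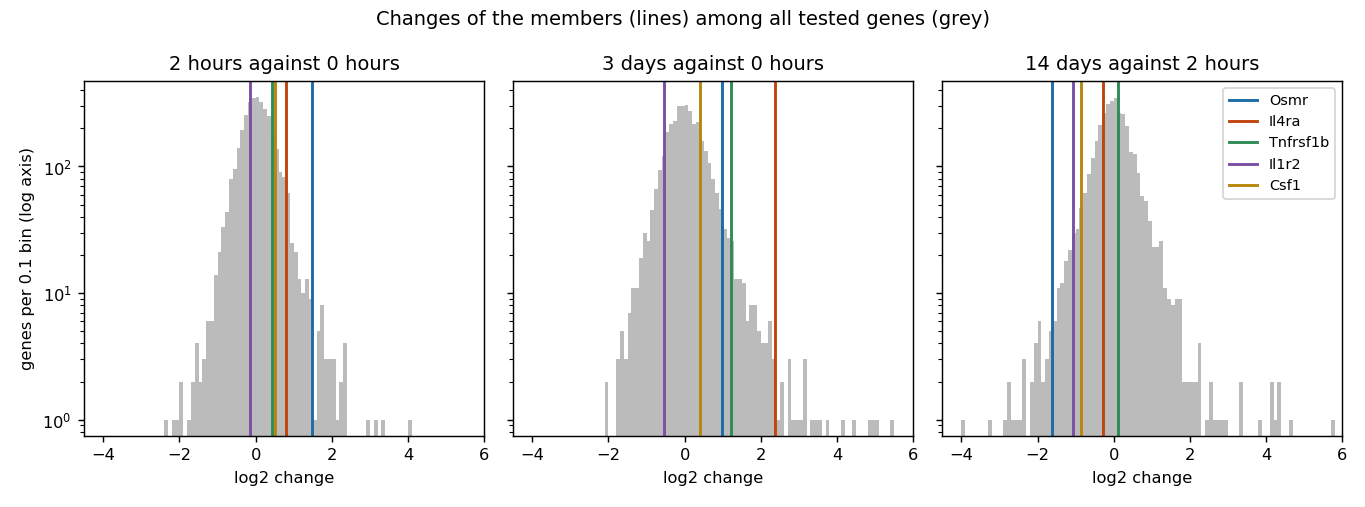
Distribution of log2 changes over the 3477 tested genes (grey, count on a log axis) with the 5 genes as lines, in 3 comparisons. Osmr lies at 1.49 in the right tail at 2 hours, Il4ra at 2.37 in the right tail at 3 days, and Osmr, Il1r2 and Csf1 lie at −1.63, −1.07 and −0.86 for 14 days against 2 hours. The line for Il1r2 is of its brighter probe set.

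Il4ra and Osmr were also compared within each array. The log2 signal of Il4ra minus that of Osmr was 0.08, −0.27 and 0.11 at 0 hours, 0.04, −0.86 and −1.36 at 2 hours, 1.17, 1.49 and 1.44 at 3 days, and 0.89, 1.03 and −0.05 at 14 days. The 3 days arrays were above all others, and this difference was not tested. Among the 5 genes the smallest root mean square difference over the 12 arrays, after centring each gene, was 0.41 between Il1r2 and Csf1, and the largest was 1.22 between Il1r2 and Il4ra.

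By the same measure, the nearest tested genes to Il4ra were Lilr4b (0.27), a leukocyte immunoglobulin-like receptor, Cd53 (0.39), a tetraspanin of leukocytes, and Adam8 (0.41), a metalloprotease of leukocytes, against a median of 1.04 over all genes. The nearest to Tnfrsf1b were Slc11a1 (0.17), a metal transporter of macrophage phagosomes, Skap2 (0.18), an adaptor of Src kinase signalling, and Tubb6 (0.20), a beta-tubulin (median 0.57). Near Osmr lay Serpinb2 (0.30), an inhibitor of plasminogen activators, Ugdh (0.30), which makes a precursor of hyaluronan, and Ifi204 (0.31), an interferon-inducible protein (median 0.80).

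The nearest to Csf1 was Tnfrsf1a (0.20), the other TNF receptor, followed by Ywhag (0.20), a 14-3-3 protein, and Rasa3 (0.21), a Ras GTPase activator (median 0.49). Those nearest to the brighter Il1r2 probe set were Adgrd1 (0.25), an adhesion G protein-coupled receptor, Tnks2 (0.26), a tankyrase, and Mccc1 (0.26), an enzyme of leucine breakdown (median 0.61). Ifi204 and Tubb6 were measured by probe sets that also carry the suffix _f, and Cd53 is in the macrophage marker list. A gene that varies little is close to more genes, so distances are read within 1 gene.

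**Figure D4:**
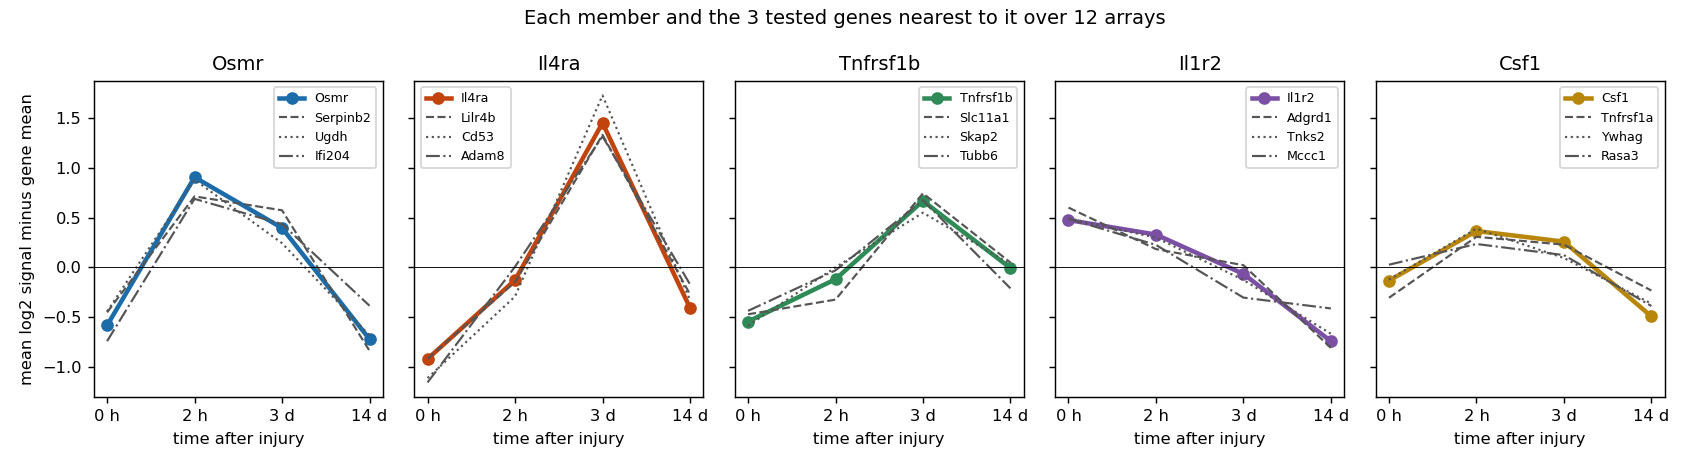
Mean log2 signal at each time point minus the gene's own mean over the 4 time points, for each of the 5 genes (thick line) and the 3 tested genes nearest to it over 12 arrays (broken lines). Osmr peaks at 2 hours, Il4ra and Tnfrsf1b peak at 3 days, and the brighter Il1r2 probe set declines to its lowest point at 14 days.

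The chains and ligands that work with these receptors were followed for comparison. Il6st, the partner chain of Osmr, averaged 2040 ± 203 at 2 hours against 1547 ± 209 at 0 hours (SD, n = 3 each), a change of 0.40 that was not called (interval −0.02 to 0.83, limma adjusted p = 0.26). Il13ra1, which joins Il4ra in the type II receptor, averaged 499 ± 27 at 3 days against 545 ± 135 at 0 hours, a change of −0.10 (interval −0.54 to 0.35, limma adjusted p = 0.80). Il1r1, the signalling IL-1 receptor, changed by 0.71 at 2 hours (interval 0.14 to 1.29, limma adjusted p = 0.13) and 0.15 at 14 days (interval −0.42 to 0.72). These 3 were named for their role and after their values were seen.

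In the IL-6 family and STAT3 list, 9 of 23 genes were tested, 2 were dim (Il6 and Jak2) and the rest had no probe set of their own. Cebpd, a transcription factor of the acute phase response, averaged 6495 ± 714 at 2 hours against 2011 ± 907 at 0 hours (SD, n = 3 each) and rose (1.78 ± 0.28, limma adjusted p = 0.0022). Socs3, a feedback inhibitor of this pathway, rose by 1.74 ± 0.47 at 2 hours and 1.52 ± 0.47 at 3 days (limma adjusted p = 0.042 and 0.044). It averaged 2072 ± 1155 at 2 hours and 1973 ± 1488 at 3 days, against 595 ± 214 at 0 hours (SD, n = 3 each). Each of these calls was lost when any 1 of 9 of the 12 arrays was left out, with adjusted p up to 0.159 and 0.205, and without the filter (0.157). The 2 hours call was kept without 0 hours replicate 1, 3 days replicate 1 or 3 days replicate 3, and the 3 days call without 0 hours replicate 1, 2 hours replicate 2 or 3 days replicate 1. The 3 days change was 0.94 without 3 days replicate 3. Cebpd and Socs3 were the 2 called higher at 2 hours and Socs3 the 1 called higher at 3 days. At 14 days Cebpd was the 1 called, lower at 0.500-fold of 0 hours (limma adjusted p = 0.036), and its change was −0.66 and not called without 0 hours replicate 1. That call was also lost without 3 days replicate 2 (0.052), 14 days replicate 1 (0.108) or 2 (0.123) and without the filter (0.107). The list's median change was 0.40 at 2 hours, 0.51 at 3 days and 0.12 at 14 days, against 0.05, 0.02 and 0.05 over all genes. Of all genes tested, limma called 3.97% higher at 2 hours, 8.89% higher at 3 days and 3.22% lower at 14 days.

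In the IL-4 and IL-13 list, 6 of 20 genes were tested and 2 were called at 3 days, both higher. Over all genes tested, 8.89% were called higher there and 4.4% lower. Arg1, arginase of repair macrophages, had 1 of 3 arrays at the floor at 0 hours and rose by at least 3.02 ± 0.48 (limma adjusted p = 9.2e-04), with 3170 ± 1843 at 3 days against 368 ± 169 at 0 hours (SD, n = 3 each). Mrc1, the macrophage mannose receptor, rose by 1.54 ± 0.23 (limma adjusted p = 6.6e-04). It is also in the macrophage marker list, so its rise is part of the marker mean given above. At 2 hours and at 14 days limma called 0 of the 6, and 1 (Arg1) had an unadjusted p under 0.05 at each. The medians were 0.17, 0.66 and 0.11 at 2 hours, 3 days and 14 days, against 0.05, 0.02 and 0.05 over all genes. Chil3, Il13ra2 and Tgm2 were dim.

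Of 8 TNF and NF-kB genes tested among 28 listed, limma called 0 in every comparison with 0 hours. At an unadjusted p under 0.05, 2 were higher at 2 hours and at 3 days (Nfkbia and Tnfrsf1a) and 0 at 14 days, and the F-test called Tnfrsf1a (adjusted p = 0.032). Tnfrsf1a, which carries the death domain, averaged 2266 ± 330 at 2 hours and 2135 ± 159 at 3 days, against 1473 ± 83 at 0 hours (SD, n = 3 each), with changes of 0.61 and 0.53 and limma adjusted p of 0.053 and 0.055. The list medians were 0.22, 0.51 and 0.04 at 2 hours, 3 days and 14 days, against 0.05, 0.02 and 0.05 over all genes. Of all genes tested, limma called 3.97%, 8.89% and 6.9% higher at these time points.

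Of 7 IL-1 family genes tested among 22, limma called 2 higher at 3 days, where 8.89% of all genes tested were called higher. It called 0 at 2 hours and at 14 days, where 2 (Il1r1 and Il1rn) and 1 (Il18) had an unadjusted p under 0.05. Il1b, the ligand that the decoy binds, did not exceed the floor on any 0 hours array and was at least 8.78-fold higher at 3 days (limma adjusted p = 6.8e-04), with 2733 ± 2541 against 97.6 ± 44.8 (SD, n = 3 each). Its 0 hours arrays all held the floor value in the fit, so their own spread did not enter the error behind this p-value. With each array left out in turn the change was 2.38 to 3.84, and the call was kept. Il1rn, the IL-1 receptor antagonist, rose by 1.22 ± 0.30 (limma adjusted p = 0.016), a call lost without 0 hours replicate 1 (0.065) and without 3 days replicate 2 (0.063) or 3 (0.090) and without the filter (0.074). The list medians were 0.19, 0.45 and 0.08 at 2 hours, 3 days and 14 days, against 0.05, 0.02 and 0.05 over all genes.

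Of 6 colony-stimulating factors and receptors tested among 16, limma called 1 higher at 2 hours and 2 higher at 3 days. Over all genes tested, 3.97% and 8.89% were called higher at these time points. At 14 days limma called 0 of the 6, while 2 were higher and 1 lower at an unadjusted p under 0.05. Kitl, the ligand of Kit, which had 1 of its 0 hours arrays at the floor, rose by at least 1.14 ± 0.20 at 2 hours (limma adjusted p = 0.0033). Csf3, which drives neutrophil production, had 1 array at the floor at 0 hours and rose by at least 1.76 ± 0.35 at 3 days (limma adjusted p = 0.0050). Csf1r, the receptor of Csf1, averaged 4448 ± 183 at 3 days against 2152 ± 223 at 0 hours (SD, n = 3 each), and rose by 1.05 ± 0.24 (limma adjusted p = 0.011). Csf1r is also in the macrophage marker list, so its rise is part of the marker mean given above. Its 2 hours and 14 days changes of −0.14 and −0.10 had intervals of −0.65 to 0.38 and −0.61 to 0.42. The log2 signal of Csf1r minus that of Csf1 was 1.003, 0.997 and 1.278 at 0 hours, 0.789, 0.218 and 0.363 at 2 hours, 1.667, 1.885 and 1.705 at 3 days, and 1.257, 0.931 and 1.875 at 14 days. The 2 hours arrays were below and the 3 days arrays above those of 0 hours, and the shift was not tested. The list medians were 0.04, 0.65 and 0.20 at 2 hours, 3 days and 14 days, against 0.05, 0.02 and 0.05 over all genes.

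**Figure D5:**
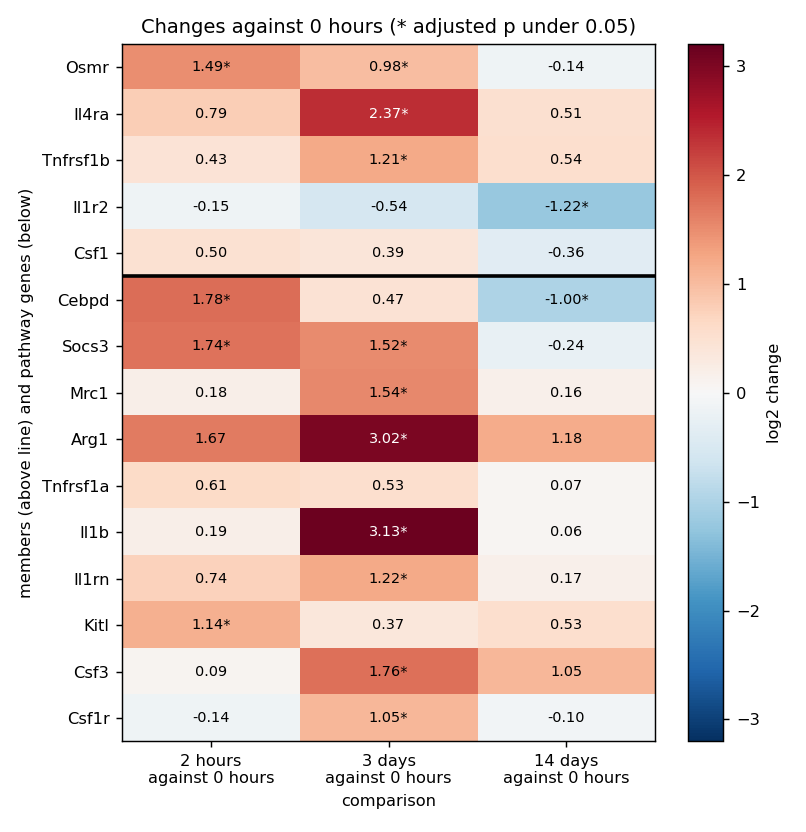
Log2 changes against 0 hours of the 5 genes (above the line) and of the named pathway genes (below), with an asterisk at an adjusted p under 0.05. Osmr, Cebpd, Socs3 and Kitl are marked at 2 hours, Osmr, Il4ra, Tnfrsf1b, Socs3, Mrc1, Arg1, Il1b, Il1rn, Csf3 and Csf1r at 3 days and Il1r2 (brighter probe set) and Cebpd at 14 days. All changes of Arg1, Csf3 and Kitl, and the 3 days change of Il1b, are lower bounds because 0 hours arrays lay at the floor. There is no bound for Il1b at 2 hours and 14 days, where 2 of 3 arrays lay there too.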

How the data were processed

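The values are the signal intensity on a linear scale that the authors deposited for each probe set and array. How they computed and scaled it is not given in the sources used here. Because trimmed means (2% off each end) differed from their average by no more than 8.39%, the deposited intensity was not rescaled. That largest deviation was of 0 hours replicate 3, and the next was 1.35% (2 hours replicate 1). The same array, 0 hours replicate 3, had the lowest mean Spearman coefficient with the other arrays, 0.851. Intensity below 225.375, the 25th percentile of all values, was raised to that floor before taking log2. A probe set entered the test if it exceeded 475.55, the median of all values, on 3 or more arrays, and each gene was represented by its brightest probe set.

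limma 3.58.1 in R 4.3.3 fitted the 12 arrays together with a mean for each time point, leaving 8 residual degrees of freedom (6.63 prior), and Benjamini-Hochberg adjustment covered the 3477 genes tested. With 3 arrays on each side the smallest possible exact permutation p is 0.1, so no such test is given. The fit was tested on simulated data.

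Members and lists were chosen with earlier results of these data known. The rule for named genes took the 5 members, up to 3 genes of each pathway list with the smallest p among those the F-test called, and the 3 genes nearest to each member by root mean square difference. The comparison of 14 days with 2 hours and the use of the dimmer Il1r2 probe set were added after the values were seen. Alternatives were quantile normalization, a floor of 113.69 or 360.7 (the 10th or 40th percentile), no filter, every probe set as its own row, trended and robust variance, a replicate block, the 2 compared time points alone, and each array left out in turn.

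Promoter windows came from RefSeq (GRCm38.p6), where all 5 genes matched by symbol. Tables were assembled in Python 3.11.15 (pandas 2.3.3), and plots were drawn in matplotlib 3.10.9.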

Additional observations from a re-analysis of the deposited data

How the results depend on the processing

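Of 630 values recomputed for the 5 genes in 6 comparisons, 591 kept their direction and their side of the threshold, 35 lost a call, 1 gained a call and 3 changed sign. This count, and the 21 settings named for each gene, include values that could hardly move. Use of the dimmer Il1r2 probe set leaves the changes of the other genes as they were. Leaving out an array of neither time point compared also keeps the change, and alters only its error and adjusted p. The calls of Osmr at 2 hours, of Il4ra and Tnfrsf1b at 3 days against 0 hours, and of Osmr and Csf1 at 14 days against 2 hours held in all 21 settings run. Without the filter, and with every probe set as its own row, more rows were tested and these changes were the same in size but not called: Osmr 0.98 at 3 days against 0 hours and −1.12 at 14 days against 3 days, Il4ra 1.58 at 3 days against 2 hours and −1.86 at 14 days against 3 days, and Tnfrsf1b 0.79 at 3 days against 2 hours. The error estimate and the unadjusted p changed as well, not only the number of rows. With every probe set, the standard error of Il4ra at 3 days against 2 hours was 0.43, against 0.36 in the main fit. Its unadjusted limma p was 0.0052, against 5.7e-04. For Tnfrsf1b in the same comparison the standard error was 0.18 against 0.21, and the unadjusted limma p 0.0023 against 0.0019. The 2 time points alone also lost Osmr at 3 days against 0 hours (0.98) and Tnfrsf1b at 3 days against 2 hours (0.79). Without the filter Csf1 at 2 hours (0.50) gained a call. The dimmer Il1r2 probe set lost the calls at 14 days against 0 hours (−0.49) and 2 hours (−0.44).

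The labels do not say whether equal replicate numbers mark pairs. Of 18 same-numbered pairs, 2 had deviations correlated over 0.1, with a median of −0.0663. Pairs with different numbers were not examined, so these values cannot settle it. With the replicate block Csf1 at 14 days against 3 days stayed at −0.75 and lost its call (limma adjusted p = 0.0549), and no other call of the 5 genes changed.

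Of the 5 genes, 0 in place of 1 were called at 14 days against 0 hours with the dimmer Il1r2 probe set. Without the filter 2 in place of 1 were called at 2 hours, and without it or with every probe set 1 in place of 3 at 14 days against 3 days and 0 in place of 2 at 3 days against 2 hours, where the 2 time points alone gave 1. Over all genes, the filter's removal gave 294 in place of 462 calls at 3 days against 0 hours, 174 in place of 327 at 3 days against 2 hours, 63 in place of 118 at 14 days against 3 days and 268 in place of 425 at 14 days against 2 hours. Every probe set gave 125 in place of 196 at 2 hours against 0 hours, 182 at 3 days against 2 hours and 67 at 14 days against 3 days. The 2 time points alone gave 63 at 2 hours, 216 at 3 days and 153 in place of 352 at 14 days, each against 0 hours, and 674 at 14 days against 2 hours.

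Leaving out each array in turn gave changes of 0.77 to 1.18 for Osmr at 3 days against 0 hours, −1.28 to −0.91 for Osmr at 14 days against 3 days and −0.343 to 0.0629 at 14 days against 0 hours. Il4ra ranged over 0.26 to 0.97 at 14 days against 0 hours, 1.33 to 1.84 at 3 days against 2 hours and −0.53 to 0.18 at 14 days against 2 hours. Tnfrsf1b ranged over 0.61 to 0.92 at 3 days and −0.0614 to 0.21 at 14 days against 2 hours, and Csf1 over −0.80 to −0.69 at 14 days against 3 days. Calls over all genes ranged over 72 to 316 at 2 hours, 178 to 558 at 3 days and 119 to 486 at 14 days against 0 hours, 112 to 409 at 3 days and 180 to 537 at 14 days against 2 hours, 59 to 127 at 14 days against 3 days, and 483 to 860 in the F-test. Calls among the 5 genes ranged over 2 to 3 at 3 days against 0 hours, 0 to 2 at 3 days against 2 hours and 1 to 3 at 14 days against 3 days. Where no change in the rows or arrays used accounts for a shift by construction, the cause was not tested.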
